A study of Mus musculus with 6 samples.

Results

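The RNA exosome is the protein complex that degrades and trims RNA from its 3′ end, and its subunits were followed here across haematopoietic stem cells (HSCs) that had kept or lost a histone label. The 10 genes Exosc1, Exosc2, Exosc3, Exosc4, Exosc5, Exosc7, Exosc8, Exosc9, Exosc10 and Dis3 were taken from the 18193 genes that the array names with 1 symbol per probe set. They were chosen by their place in the complex, and Exosc10 was picked out because 1 of its probe sets had LRC values apart from non-LRC values. That contrast of Exosc10 is therefore given as a description with no test. Together the 10 genes have 19 of the 45037 probe sets compared, and 5 of the genes have more than 1.

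The exosome is a barrel. A ring of subunits that resemble bacterial RNase PH but have lost catalytic activity in mammals (Exosc4 to Exosc9) carries a cap of RNA-binding proteins (Exosc1, Exosc2 and Exosc3). RNA is threaded through the barrel to Dis3, a processive exonuclease that also has endonuclease activity, while Exosc10 is a distributive exonuclease that acts mainly in the nucleus and nucleolus. The complex matures ribosomal and small nucleolar RNAs, removes unstable nuclear transcripts and degrades messenger RNA in the cytoplasm. In blood formation it is known from erythroid precursors, where it restrains maturation.

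All 6 samples came from the SCL-tTA H2B-GFP transgenic mouse line, in which the tTA-S2 transactivator, placed in the endogenous scl locus, drives the label, H2B-GFP, which is green fluorescent protein joined to a core histone. Doxycycline turns the label off, and the marrow was sorted after 170 days of it. The sort took cKit+, Sca1+ and Lin Neg cells that were also CD150+, CD48 Neg and CD34 Neg. The GFP+ fraction, the label-retaining cells (LRC), gave 3 samples, and the GFP Neg fraction (non-LRC) gave 3 samples. GFP Neg cells may have diluted the label or may never have carried it, and which of these holds cannot be told apart here. The labels call the samples independent biological replicates. The sources used here give neither the age and sex of the mice nor whether a sample pooled several. Each sample was read on 1 array, and values are log2 expression, so that a difference of 1 is a 2-fold change.

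The arrays had medians of 4.33 to 4.39 (log2). LRC replicate 1 stood apart, with a correlation of at most 0.919 to any other array across probe sets, against up to 0.970 among the rest. The 18 probe sets of hybridization controls, which are spiked-in transcripts, averaged 11.24 on LRC replicate 1 and 11.02 on LRC replicate 3, against 10.58 to 10.70 on the other arrays. Kit, positive in the gate, differed by 0.03 between the groups, and Slamf1, which encodes CD150, read 6.24, 7.76 and 8.83 in LRC against 7.20, 8.26 and 8.48 in non-LRC. The mean of 7 HSC genes lay at 8.98 to 9.47 on the 6 arrays. Cd48, negative in the gate, lay at 2.34 to 3.27, whereas Cd34, also negative in the gate, lay at 5.10 to 7.43 on 5 arrays and at 2.52 on LRC replicate 1.

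The Exosc10 gene had 4 probe sets, and they did not move together. On probe set 1437294_at, the one it was picked for, the LRC values were 6.06, 6.39 and 7.20 and the non-LRC values 4.52, 4.41 and 4.49 (replicates 1, 2 and 3 in this order throughout). Every LRC array lay above every non-LRC array, with 1.54 between the nearest 2. The LRC mean was 6.55 ± 0.58 and the non-LRC mean 4.47 ± 0.06 (SD over 3 arrays each), which differ by 2.08 (SE 0.31), or 4.23-fold. Among all probe sets, 4.88% had every LRC value above every non-LRC value, 3.4% had every LRC value below, and 8.28% were apart in one direction or the other.

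The other Exosc10 probe sets had overlapping groups. Probe set 1423587_a_at, the brightest of the 4 and the one that stands for the gene where 1 per gene is used, read 7.57, 7.81 and 8.42 in LRC against 7.75, 8.12 and 7.28 in non-LRC. Its difference was 0.22 (SE 0.32). Probe set 1454021_a_at read 6.57, 8.09 and 7.64 in LRC against 8.06, 8.23 and 8.12 in non-LRC. Its difference of -0.71 (SE 0.40) shrank to -0.27 without LRC replicate 1. Probe set 1431832_x_at, designed from the same cDNA, read 5.36, 7.24 and 6.95 against 7.16, 6.88 and 6.60. Its difference was -0.36 (SE 0.51), or 0.22 without LRC replicate 1. In the manufacturer's naming, a suffix _a_at marks probes shared by several transcripts of a gene, and _x_at marks probes that may match other transcripts. The sources used here do not say which exons each set covers, and 1437294_at is assigned to Exosc10 by the platform annotation alone. Of the probe sets so assigned, 1 read higher in LRC and the 3 others had overlapping groups.

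**Figure D1:**
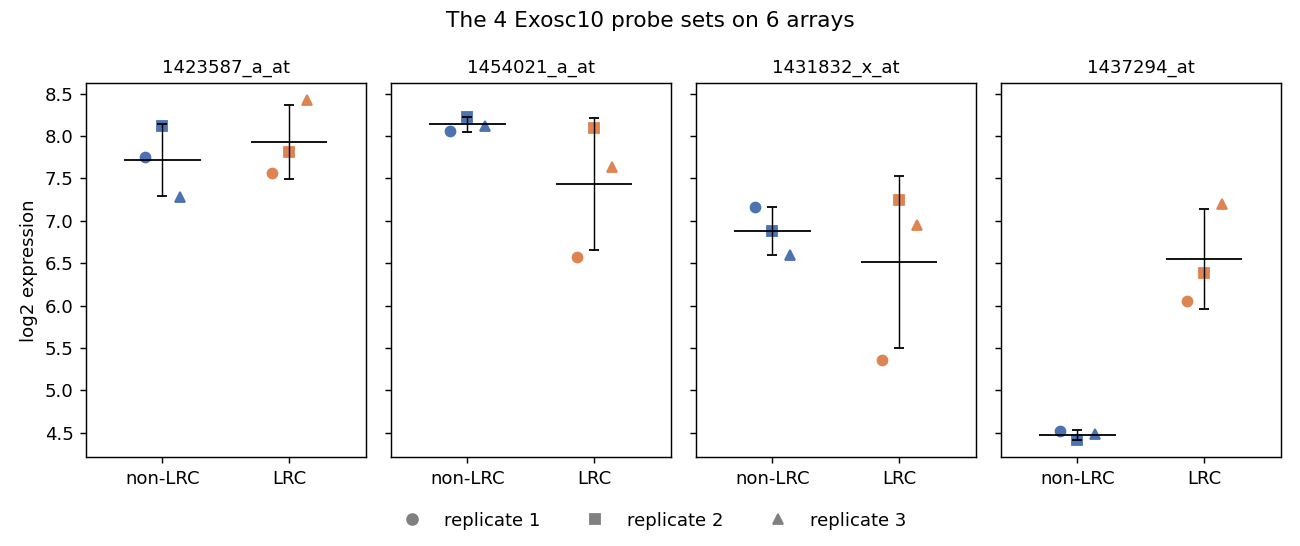
Log2 expression (vertical axis) of the 4 Exosc10 probe sets in non-LRC (blue) and LRC (orange), with 1 point per array, shapes for the replicate number, a horizontal line at the mean and a bar of 1 SD. Only 1437294_at has its groups apart, at 4.41 to 4.52 in non-LRC and 6.06 to 7.20 in LRC.

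The size of the difference on 1437294_at ran from 1.76 to 2.32 when each array was left out in turn, where groups that do not overlap fix the direction beforehand. By a rule based on the shape and size of the centred profile, the nearest of 12454 candidate genes over the 6 arrays were Jakmip1, Src, Fcgr3, Zfp503 and Tysnd1. Their centred profiles lay within a root-mean-square distance of 0.45 to 0.49 log2 units of that of 1437294_at. Their own differences were 1.14 to 1.85, and that these are positive follows from the rule. The protein-coding genes on either side of Exosc10 in the RefSeq annotation had overlapping groups. Angptl7 differed by -0.22 (SE 0.31) and Srm, which encodes spermidine synthase, by -0.34 (SE 0.71).

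The sequence upstream of Exosc10 is shown because 1 of its 4 probe sets, 1437294_at, had the widest difference of the 19. Its other probe sets did not share that difference, and the arrays say nothing of what binds upstream. It is the 250 bases before the first annotated start, from RefSeq on GRCm38.p6, at chr4:148558169-148558418 on the plus strand, written 5′ to 3′ with CpG dinucleotides in capitals.
Exosc10: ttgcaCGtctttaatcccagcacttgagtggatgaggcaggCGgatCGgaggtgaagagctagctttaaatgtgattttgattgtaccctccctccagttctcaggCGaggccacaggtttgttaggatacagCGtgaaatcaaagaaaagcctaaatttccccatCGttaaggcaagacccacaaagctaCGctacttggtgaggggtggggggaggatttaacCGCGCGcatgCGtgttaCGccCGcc
It holds 13 CpG, where the median over 32851 annotated promoter windows of that length was 6 and 31.5% held at least as many. Windows were found for 8 of the 10 genes, 9 windows in all, since Exosc10 has a second annotated start. The window before that second start holds 28 CpG. Exosc4 and Exosc9 had none in the table. Searched on both strands with overlaps between motifs allowed, CCGGAA, the core of ETS factor sites, was in 3 of the 9 windows against 12% of all windows. Among these 3 is the second Exosc10 window, with 2 matches, while the window shown matched none of the motifs searched here. The letters CCAAT were in 4, against 33.8%, and the E-box CACGTG in 1, against 6.02%. The letters TATAAA were in none of them, against 12.4% of all windows. These matches describe letters and not binding.

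Across the 10 genes no probe set passed the test. Limma gave 0 of 19 exosome probe sets an adjusted p under 0.05, as it did for 0 of all 45037 (0%). At an unadjusted p under 0.05 there was 1 of 19, beside 1673 of all probe sets (3.71%). That 1 is the Exosc10 probe set picked for its separated groups, so it follows from the choice and is no result. In the 18 others the adjusted p was at least 0.998. The nearest of them to separated groups was Exosc8 probe set 1420115_at, whose lowest LRC value, 5.74, lay 0.01 below its highest non-LRC value, 5.75. With 1 probe set per gene, that of highest mean, 7 of the 10 genes had a lower mean in LRC, against 45.1% of all named genes. Their median difference was -0.25, against 0.03 over all named genes. Over the 12455 named genes at or above the 40th percentile of the mean, where all 10 lie, 49.6% were lower and the median was 0. Without LRC replicate 1 the exosome count was 6 of 10 and the exosome median -0.14, beside 51.6% and -0.01 over all named genes. When LRC replicates 1 and 3 were both dropped it was 5 of 10 and 0.01, beside 56.9% and -0.06.

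**Figure D2:**
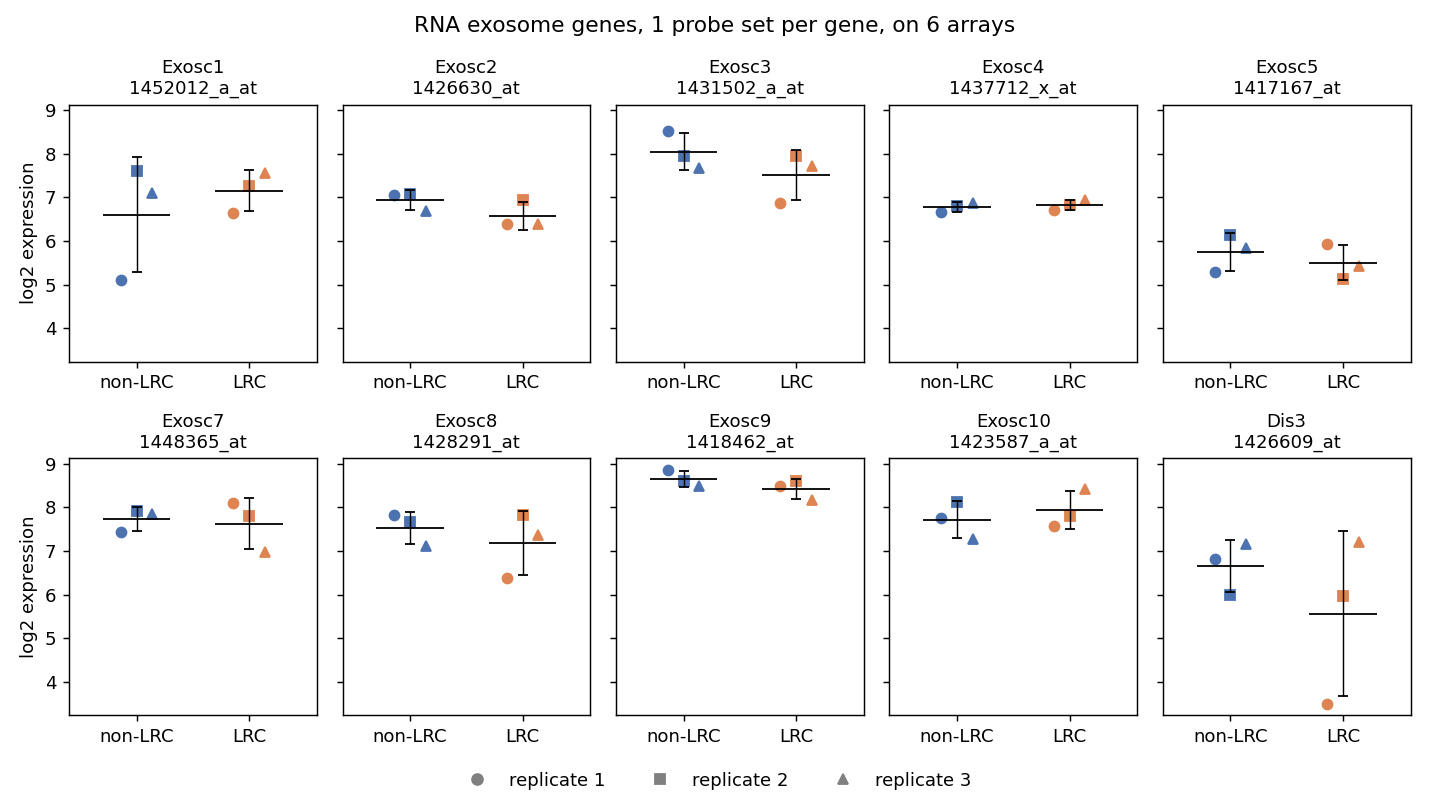
Log2 expression (vertical axis) of the 10 exosome genes, 1 probe set each, in non-LRC (blue) and LRC (orange), with 1 point per array, shapes for the replicate number, a line at the mean and a bar of 1 SD. Levels of different genes cannot be ranked, since probes differ in brightness. The groups overlap in all 10 panels, and Dis3 on LRC replicate 1, at 3.50, lies farthest from its group.

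In the cap, which receives RNA at the mouth of the barrel, Exosc2 and Exosc3 had lower LRC means and Exosc1 a higher one. Exosc3, the cap subunit whose mutation causes a pontocerebellar hypoplasia in people, read 6.87, 7.95 and 7.73 in LRC against 8.53, 7.95 and 7.68 in non-LRC. The groups overlapped, and the difference was -0.54 (SE 0.37, 95% interval -1.43 to 0.35), or -0.22 without LRC replicate 1. Exosc2 read 6.39, 6.94 and 6.40 in LRC against 7.06, 7.09 and 6.68 in non-LRC. Of its LRC arrays 2 lay below all non-LRC arrays and replicate 2 lay among them. The difference was -0.37 (SE 0.24), and it kept its sign when each array was left out (-0.55 to -0.27). It shrank to -0.11 with the hybridization controls as a covariate and to -0.01 without LRC replicates 1 and 3. A second Exosc2 probe set, 1446994_at, had a mean below the 40th percentile of all probe sets and a difference of 0.23 (SE 0.36), which became -0.06 once LRC replicate 1 was dropped.

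Exosc1 turned on 1 array of the other group. It read 6.64, 7.26 and 7.56 in LRC against 5.11, 7.61 and 7.10 in non-LRC. Non-LRC replicate 1 lay far below the other 5 arrays, and the difference of 0.55 (SE 0.67) became -0.20 without it. That array also had the highest mean of the 9 granulocyte and monocyte markers, at 6.29, against 5.21 to 5.43 on the other non-LRC arrays and 5.14 to 5.69 in LRC. Its mean of the 5 erythroid markers was highest too, at 4.82 against 3.52 to 4.18 elsewhere. Of these 5 markers 3 had a mean below the 40th percentile, as had 1 of the 9 granulocyte and monocyte markers. The part of either marker list in the Exosc1 value was not tested. Of its 2 dimmer probe sets, 1453359_at differed by -0.29 (SE 0.24) and 1432052_at, below the 40th percentile, by 0.23 (SE 0.33).

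Of the 5 ring genes among the members, 4 had a lower LRC mean, with differences of -0.35 to 0.03, and 0 passed the test. Exosc9, which pairs with Exosc4 in the ring, read 8.49, 8.60 and 8.16 in LRC against 8.86, 8.60 and 8.50 in non-LRC, and differed by -0.24 (SE 0.21). LRC replicates 1 and 3 lay below all non-LRC arrays, replicate 1 only just (8.49 against 8.50), and replicate 2 lay among them. Every leave-one-out value was negative (-0.33 to -0.11), but the difference was -0.05 without LRC replicates 1 and 3. Exosc5 read 5.93, 5.14 and 5.43 in LRC against 5.28, 6.13 and 5.85, a difference of -0.26 (SE 0.32) with the groups mixed. It was -0.07 without non-LRC replicate 2 and -0.49 without non-LRC replicate 1. Exosc7 read 8.10, 7.80 and 6.98 against 7.43, 7.93 and 7.86. It had both its highest and its lowest value in LRC, and its difference of -0.11 (SE 0.34) became 0.21 without LRC replicate 3.

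Exosc4 was steady on its brightest probe set, 1437712_x_at, and less so on 1460679_at. On 1437712_x_at it read 6.71, 6.82 and 6.94 in LRC against 6.67, 6.80 and 6.88 in non-LRC. The difference was 0.03 (SE 0.18), and its 95% interval, -0.40 to 0.46, was the narrowest of the 19. The other Exosc4 probe sets differed by -0.14 (SE 0.44) for 1460679_at and -0.05 (SE 0.25) for 1424685_at. The first of these read 7.41 on LRC replicate 1 and 5.92 and 5.98 on the other LRC arrays, so that its difference was -0.63 (SE 0.25) without LRC replicate 1.

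Exosc8, a ring subunit known as a target of GATA1-dependent repression in erythroid cells, gave opposite signs on its probe sets. On 1428291_at it read 6.38, 7.82 and 7.37 in LRC against 7.82, 7.67 and 7.12 in non-LRC. Its difference of -0.35 (SE 0.41) became 0.06 without LRC replicate 1. On 1420115_at it read 6.01, 6.55 and 5.74 against 5.75, 5.08 and 5.72, a difference of 0.59 (SE 0.30) that stayed positive when each array was left out (0.36 to 0.77). The gene thus had no single direction on this array.

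Dis3, the processive nuclease at the base of the barrel, had the largest difference of the 10 genes by 1 probe set each, and 1 array made most of it. It read 3.50, 5.98 and 7.21 in LRC against 6.81, 5.99 and 7.17 in non-LRC. LRC replicates 2 and 3 lay next to the non-LRC values of 5.99 and 7.17, and LRC replicate 1 lay far below all other arrays. The difference was -1.10 (SE 0.93, 95% interval -3.34 to 1.14), and -0.07 (SE 0.52, 95% interval -1.39 to 1.26) without that array. The same array had the lowest value of 4 of the 10 genes (Dis3, Exosc2, Exosc3 and Exosc8), where it was lowest for 18.3% of all named genes. With the hybridization controls as a covariate Dis3 differed by -0.15 (SE 1.21). Its leave-one-out values ran from -1.92, without LRC replicate 3, to -0.07. With LRC replicates 1 and 3 both left out it was -0.68.

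LRC replicate 1 also had the highest mean of the lymphoid markers, at 4.19, against 3.38 and 3.52 on the other LRC arrays and 3.44 to 3.54 in non-LRC. Of the 8 lymphoid genes measured, 6 had a mean below the 40th percentile, and their part in the low Dis3 value was not tested. In bulk samples, fewer cells of a type and less RNA per cell cannot be told apart.

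**Figure D3:**
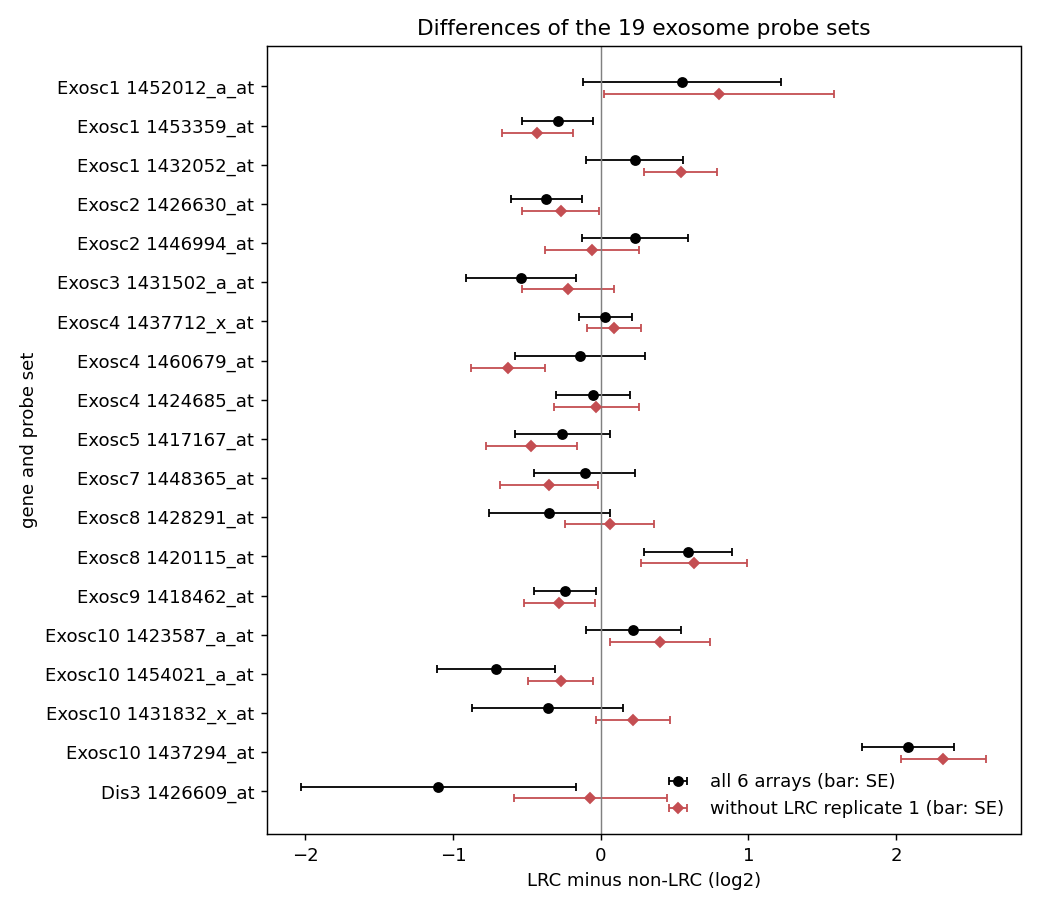
LRC minus non-LRC difference (horizontal axis, log2) of the 19 exosome probe sets, with all 6 arrays (black circles) and without LRC replicate 1 (red diamonds), bars of 1 SE from limma. Exosc10 1437294_at stands alone at 2.08 and 2.32, and Dis3 moves from -1.10 to -0.07.

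By role, the median differences were -0.37 for the 3 cap genes, -0.24 for the 5 ring genes, and -0.44 for the 2 nucleases. Over all named genes the median was 0.03. The nuclease value lies midway between opposite signs, -1.10 for Dis3 and 0.22 for Exosc10 1423587_a_at. Without LRC replicate 1 the medians by role were -0.22, -0.28 and 0.17, beside -0.01 over all named genes. The median SD of the 10 genes was 0.45 in LRC and 0.39 in non-LRC, against 0.35 and 0.27 over all named genes. On LRC replicate 1 the 10 genes lay a median of 0.25 below their own means over the 6 arrays, and on non-LRC replicate 2 they lay 0.27 above. LRC replicates 2 and 3 were at 0.09 and -0.02, against 0.02 to 0.27 on the non-LRC arrays.

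**Figure D4:**
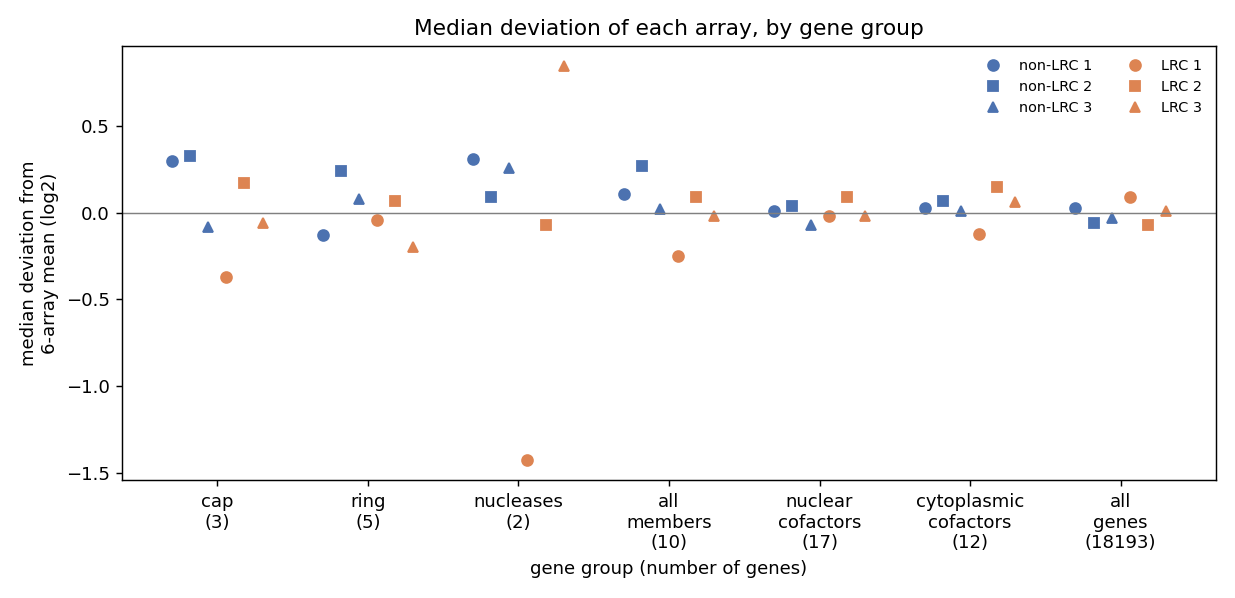
Median deviation of the genes of each group from their own 6-array means (vertical axis, log2) on each array, in blue for non-LRC and orange for LRC, with shapes for the replicate number. Among all 10 exosome genes LRC replicate 1 is lowest at -0.25 and non-LRC replicate 2 highest at 0.27, while all 18193 genes lie between -0.07 and 0.09.

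Of 7 other enzymes and subunits of 3′ decay, 1 had groups that did not overlap, beside 8.32% of all named genes. Eri1, a 3′ exonuclease that trims histone messenger RNA and ribosomal RNA, read 8.20, 7.47 and 8.30 in LRC against 6.65, 7.02 and 7.28 in non-LRC. All LRC arrays were higher and the difference was 1.01 (SE 0.30), but the adjusted p was 0.998 and the second Eri1 probe set went the opposite way. Dis3l, the cytoplasmic relative of Dis3, read 6.47, 6.43 and 5.88 against 5.72, 5.81 and 5.92, a difference of 0.45 (SE 0.23) with LRC replicate 3 inside the non-LRC range. Exosc6, the ring subunit outside the 10 genes, differed by -0.15 (SE 0.39) and Dis3l2, which degrades uridylated RNA, by -0.01 (SE 0.29). Isg20, Rexo1 and Rexo2 differed by 0.24, -0.13 and -0.22, and 1 of the 2 dimmer Rexo1 probe sets shared its sign.

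The cofactors that bring RNA to the exosome did not pass the test either. Of 17 nuclear cofactors 0 passed; 8 had a lower LRC mean, and the median difference was 0.03. Mtrex, the helicase that feeds RNA into the nuclear exosome, differed by 0.67 (SE 0.43, a sign that 1 of its 2 dimmer probe sets shared), its partner Zfc3h1 by 0.72 (SE 0.42) and Mphosph6, which helps dock that helicase, by 0.77 (SE 0.51). Of 12 cytoplasmic cofactors, 7 were lower, 0 passed and the median was -0.04. Ttc37, the scaffold of the Ski complex that hands messenger RNA to the exosome, differed by -0.30 (SE 0.28, against the sign of its second probe set), Aven by -0.70 (SE 0.43) and Khsrp, which binds AU-rich elements, by 0.28 (SE 0.25).

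Neighbouring decay pathways gave 0 calls as well. Among 18 genes of decapping and 5′ decay the median was -0.08. Lsm6, a subunit of the ring that binds the 3′ end of deadenylated RNA, differed by -0.96 (SE 0.31, a sign that 1 of the 3 remaining Lsm6 probe sets shared), Dcp2, the decapping enzyme, by -0.75 (SE 0.50) and Edc4, its scaffold, by 0.43 (SE 0.23). Among 18 deadenylation genes the median was -0.01. Cnot6l, a deadenylase, differed by -0.39 (SE 0.17), a sign that 2 of its 3 dimmer probe sets shared. Cnot11 was at -0.70 (SE 0.37, against the sign of its 2 dimmer probe sets). Pabpc1, the poly(A)-binding protein, was at -0.25 (SE 0.17, against the sign of its second probe set). Among 10 genes of nonsense-mediated decay the median was -0.13. The kinase Smg1 differed by -0.65 (SE 0.22), a sign shared by all 4 Smg1 probe sets, and Smg5 by -0.52 (SE 0.18), a sign that the second Smg5 probe set did not share. Smg8, which binds Smg1, differed by 0.81 (SE 0.35). All of these had an adjusted p of 0.998.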

How the data were processed

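Total RNA of 3 LRC and 3 non-LRC samples was amplified in 2 rounds with a NuGEN kit and hybridized to 1 mouse expression array each, per the labels' protocols. The authors deposited log2 expression values, 1 per probe set and array, made with RMA (background correction, quantile normalization, probe summary) per the submitters' processing notes, which give no version. That the base is 2 was read from the range of the values. Quantile normalization hides changes in total RNA per cell, and the precision is limited by the number of arrays, which carry no read depth.

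From 45101 probe sets, 64 controls were left out. Symbols came from the platform annotation: 34945 probe sets name 1 gene, 932 several and 9160 none. LRC was compared with non-LRC by limma 3.58.1 in R 4.3.3 (lmFit, eBayes, no covariate), with Benjamini-Hochberg adjustment over 45037 probe sets and a threshold of 0.05. Errors of differences are limma's moderated SE. Where 1 probe set per gene is used, it is the one with the highest mean. Because nothing in the sources tells whether samples came from single mice, p-values measure the spread between these samples.

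Beside the 10 genes, those named are every gene of the related nuclease list, the 3 of smallest p in each other list of RNA decay genes, the gate genes, the 5 genes nearest in profile to Exosc10 1437294_at and the neighbours of Exosc10. The members and lists were chosen with earlier results of these data known. In a simulation of the comparison of LRC with non-LRC on 45037 probe sets, noise was drawn independently for each probe set. Spread shared between the probe sets of an array was thus left out. Limma recovered 0% of 50 probe sets changed by 1 (log2), 32% at 2, 64% at 3 and 84% at 4, with 4 false calls. Columns of other samples numbered 0. Alternatives covered normalization, a filter at the 40th percentile of the mean, moderation, array weights, a replicate block, left-out arrays, the hybridization controls, thresholds and averaging probe sets.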

Additional observations from a re-analysis of the deposited data

How the results depend on the processing

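The number of probe sets with an adjusted p under 0.05 was 0 for the array and 0 for the exosome under every normalization, filter, moderation, weighting, covariate and left-out array tried, and also at a threshold of 0.1. At an unadjusted p under 0.05 it was 1673 and 1, the 1 being the Exosc10 probe set picked for this contrast. The count of exosome genes lower in LRC, 7 of 10, ranged from 6 to 9 over the fits that left out an array, and the median difference from -0.26 to -0.14. Over the same fits 41.6% to 51.6% of all named genes were lower, with medians of -0.01 to 0.08. The exosome median was -0.11 (6 of 10 lower) with the hybridization control covariate, where 57% of all named genes were lower with a median of -0.06. It was -0.09 with all probe sets of a gene averaged, and 0.01 without LRC replicates 1 and 3. The replicate numbers do not pair the samples by the labels: same-numbered arrays deviated together with correlations of 0.0798, 0.141 and 0.0811, although 6 of 6 arrays correlated best with their own number, a hint from the data. With the replicate block 0 probe sets were called, 0 of the exosome. The block cannot change the differences, since each number has 1 array in each group, so the median is -0.25 by design.

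With 1 probe set per gene, signs turned for 5 genes, none of them called. Exosc8 1428291_at was 0.26 with the hybridization control covariate, -0.66 to 0.06 over the left-out arrays (0.06 without LRC replicate 1), 0.28 without LRC replicates 1 and 3 and 0.12 as the mean of its probe sets. Exosc4 1437712_x_at was -0.03 to 0.09 over the left-out arrays (-0.02 when non-LRC replicate 1 was dropped and -0.03 when LRC replicate 3 was) and -0.05 as the mean of its probe sets. Exosc7 was -0.35 to 0.21 (0.21 without LRC replicate 3), and 0.06 without LRC replicates 1 and 3. Exosc1 1452012_a_at was -0.20 to 1.05 (-0.20 when non-LRC replicate 1 was dropped). Exosc10 1423587_a_at was -0.03 to 0.42 (0.00 when non-LRC replicate 3 was dropped and -0.03 when LRC replicate 3 was). Apart from left-out arrays, the causes were not tested. A change of 2-fold was recovered in 0% of cases simulated with independent noise, so changes of that size could be missed on these arrays.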

Other observations

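The disagreement between the Exosc10 probe sets was set against other genes after it had been seen. The difference on 1437294_at lay 2.44 (log2) above the median difference of the other 3 probe sets. Over the 1949 genes with at least 4 probe sets, 12 of 9274 probe sets (0.129%) lay at least that far from the median of their gene's others, in 11 genes. These counts include 1437294_at and Exosc10 themselves. Since Exosc10 was picked for this contrast, its place among them is a description. Which part of the transcript 1437294_at covers would be the first thing to look up.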
